A study of Mus musculus with 6 samples.

Results

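The Distal-less homeobox (Dlx) genes encode DNA-binding homeodomain transcription factors. The deposited table holds a row for each of the 6 mouse genes Dlx1, Dlx2, Dlx3, Dlx4, Dlx5 and Dlx6, chosen by symbol out of 25899 gene symbols, and all 6 passed the filter on low values. RNA came from dental mesenchyme of the apical portion of mandibular first molars at postnatal day 7.5. There were 3 libraries from mutants, genotype Gli1-CreER;Bmpr1afl/fl, and 3 from littermate controls, genotype Bmpr1afl/fl, on a mixed C57Bl6/129S6/SvEvTac background. Controls 1 and 2 were littermates of mutants 1 and 2 (litter 1), while control 3 and mutant 3 formed litter 2. All animals carried the floxed Bmpr1a alleles, the gene for BMPR1A, through which cells receive bone morphogenetic protein (BMP) signals. The mutants also carried CreER, a tamoxifen-dependent recombinase driven from the Gli1 gene, so deletion is limited to Gli1-expressing cells and their descendants. The tamoxifen schedule, and whether a library came from 1 animal or from several, are not given in the sources used here, so p-values measure the spread between these libraries.

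Dlx genes lie in the genome as linked pairs, and the members of a pair often share enhancers and expression domains. In the embryonic pharyngeal arches they are expressed in nested domains that set the identity of upper and lower jaw. Dlx1 and Dlx2 act in both jaws and are needed together for upper molars, whereas Dlx5 and Dlx6 specify the lower jaw. Dlx3 and Dlx5 also act later in mineralizing tissues, and mutation of human DLX3 causes tricho-dento-osseous syndrome, which affects hair, teeth and bone. BMP signalling is a known inducer of several Dlx genes in skeletal and dental tissue.

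In the GENCODE annotation of GRCm38, the build that mm10 in the submitters' processing notes denotes, each pair is convergent, with the 2 genes on opposite strands and their 3′ ends facing. Dlx1 (ENSMUSG00000041911.3) lies at chr2:71528113-71533981 on the plus strand, and Dlx2 (ENSMUSG00000023391.8) at chr2:71543408-71546754 on the minus strand, 9426 bases apart. Dlx3 (ENSMUSG00000001510.8) lies at chr11:95120119-95125296 on the plus strand, and Dlx4 (ENSMUSG00000020871.8) at chr11:95140447-95146263 on the minus strand, with 15150 bases between them. Dlx6 (ENSMUSG00000029754.13) lies at chr6:6863334-6868568 on the plus strand, and Dlx5 (ENSMUSG00000029755.10) at chr6:6877805-6882085 on the minus strand, separated by 9236 bases.

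The 6 genes share the homeobox, the 180 bases that encode the homeodomain, and this is the stretch where reads could be assigned to the wrong paralog. Codons 41 to 60 of the homeobox, which hold the Trp-Phe-Gln-Asn codons of the DNA-recognition helix, are shown from the GENCODE transcripts, 5′ to 3′ on the coding strand. Capitals mark bases that differ from Dlx1 at the same place.
Dlx1: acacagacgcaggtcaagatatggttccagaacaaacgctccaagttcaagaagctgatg
Dlx2: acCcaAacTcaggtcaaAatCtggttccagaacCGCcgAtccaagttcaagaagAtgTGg
Dlx3: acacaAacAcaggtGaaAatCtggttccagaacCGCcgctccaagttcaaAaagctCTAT
Dlx4: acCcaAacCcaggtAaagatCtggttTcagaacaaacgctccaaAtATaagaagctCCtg
Dlx5: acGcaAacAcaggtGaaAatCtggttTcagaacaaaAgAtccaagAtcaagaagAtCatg
Dlx6: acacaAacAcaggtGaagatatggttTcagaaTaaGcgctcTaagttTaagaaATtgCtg
The other 5 genes differed from Dlx1 at 11 to 13 of these 60 bases. Over the whole homeobox, identity ran from 66.1% (Dlx3 and Dlx6) to 81.7% (Dlx2 and Dlx3). Linked genes were not the closest in sequence: Dlx1 and Dlx2 shared 73.9%, Dlx3 and Dlx4 71.7%, and Dlx5 and Dlx6 73.3%. No stretch of 36 bases was common to the transcripts of any 2 members, one transcript being taken for each gene. The read length and the counting program are not given in the sources used here.

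Values are in RPM, reads scaled to the size of the library and not to gene length, recovered from the deposited log2 values. Libraries held 15916045 to 20609420 reads on genes. The 6 members had between 984 reads (Dlx1) and 7304 reads (Dlx3) in a library, so counting error was small beside the spread between libraries. Bmpr1a, the floxed gene, was at 121, 139 and 149.5 RPM in controls 1 to 3 and at 108, 120.2 and 111 RPM in mutants 1 to 3. Its groups did not overlap, and its log2 change was -0.27 (SE 0.14, limma unadjusted p 0.091). In these bulk libraries, fewer cells of a type and less RNA per cell cannot be told apart.

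The first question was how abundant each Dlx gene was in this tissue. Levels were compared between genes per kilobase of exon, over all 6 libraries. Dlx3 was the most abundant member at 68.9 ± 17.8 RPM per kilobase (mean ± SD over 6 libraries here and in the next sentences). Dlx5 followed at 61.7 ± 10.6 RPM per kilobase, and the order of these 2 genes held in 4 of 6 libraries, so they did not differ beyond their spread. Dlx4 was at 35.8 ± 10.4 RPM per kilobase and stood below Dlx5 in 6 of 6 libraries, although the ranges overlapped. Dlx2, at 27.6 ± 8.85 RPM per kilobase, was below Dlx4 in 5 of 6 libraries with overlapping ranges. The 2 remaining genes stood apart from their neighbours in that order. Dlx6 was at 18.1 ± 1.82 RPM per kilobase and Dlx1 at 11.2 ± 2.27 RPM per kilobase, and neither range reached that of the gene above it.

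The leading genes Dlx3 and Dlx5 belong to different linked pairs, and in each of those pairs the partner was lower. Dlx3 exceeded 95.9% and Dlx5 95.2% of the tested genes that had an exon length, on the length-scaled level. Dlx1, the lowest member, still exceeded 66.6% of them. Among 18 other homeobox genes listed for dental mesenchyme, Barx1 (295 RPM per kilobase), Msx1 (105 RPM per kilobase) and Msx2 (88.3 RPM per kilobase) had higher mean levels than any Dlx gene. Barx1, a molar-field factor, and the Msx genes, which act in BMP signalling in tooth mesenchyme, are established markers of this tissue. The factors Lhx6, Lhx8 and Pax9 had lower mean levels than all 6 Dlx genes, at 9.33, 8.29 and 6.73 RPM per kilobase. Hoxa2, which marks the second arch and not the jaw arch, had 1 read in control 2 and no reads in the other libraries.

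**Figure D1:**
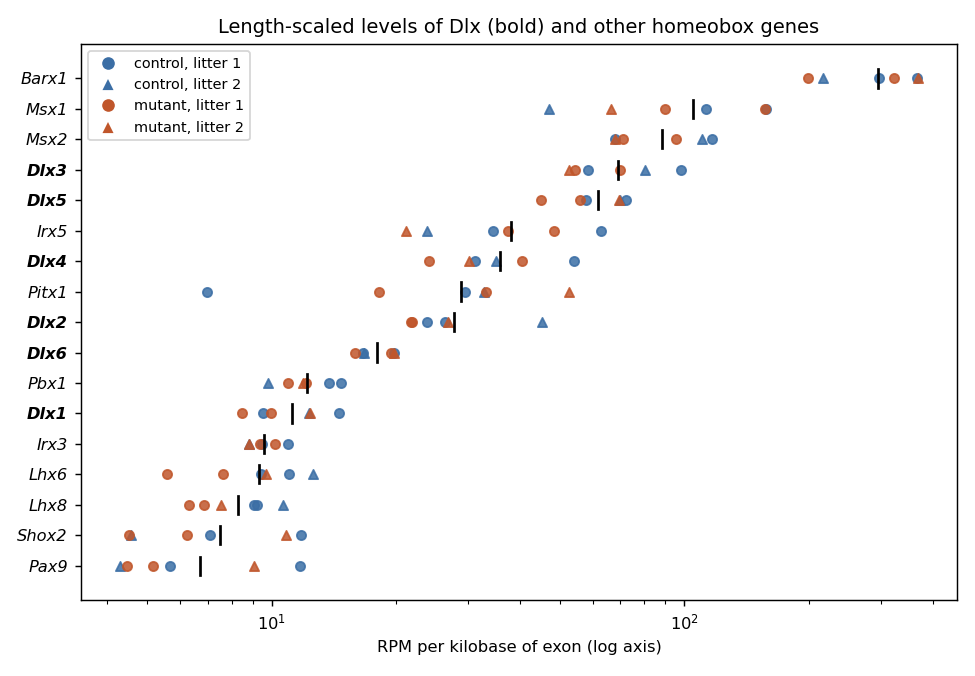
Levels per kilobase of exon (log axis) of the 6 Dlx genes, in bold, and of other listed homeobox genes that averaged 1 RPM per kilobase or more. Each point is 1 library, coloured by genotype and shaped by litter, and the bar is the mean of 6 libraries. Dlx3 and Dlx5 lie at 68.9 and 61.7 RPM per kilobase, below Barx1, Msx1 and Msx2, and Dlx1 is lowest of the family at 11.2.

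The mutant and control libraries were then compared gene by gene. Of 14444 genes, 0.0% reached an adjusted p under 0.05 (limma, Benjamini-Hochberg), 1.05% reached an unadjusted p under 0.05 (0.692% with lower levels in mutants), and 2.64% had groups that did not overlap. Of the 6 Dlx genes, 0 had an adjusted p under 0.05, 0 had an unadjusted p under 0.05 and 0 had groups that did not overlap. The mean was lower in mutants for 5 of 6, where 54.4% of all genes had a log2 change below 0. The median log2 change was -0.29 for the 6 genes and -0.01 for all tested genes. No Dlx gene was shown to change, and each interval below, from the fit without litter as a term, includes 0.

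Dlx1 was at 60.03, 39.3 and 50.7 RPM in controls 1 to 3 and at 35.0, 40.9 and 50.8 RPM in mutants 1 to 3. The groups overlapped, with control 1 highest and mutant 1 lowest. The log2 change was -0.23 (95% interval -0.72 to 0.25, SE 0.21, limma unadjusted p 0.292), and it was -0.09 without control 1 and -0.11 without mutant 1.

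Dlx2, its partner, was at 65.1, 58.9 and 112 RPM in controls and at 53.8, 54.1 and 66.3 RPM in mutants. Control 3 stood far above the other 5 libraries, which lay within 53.8 to 66.3 RPM. The log2 change was -0.38 (95% interval -0.96 to 0.21, SE 0.25, limma unadjusted p 0.171), and it was -0.10 without control 3. With litter as a block the change was the same and the unadjusted p 0.04 (adjusted p 1.00, limma with Benjamini-Hochberg), in a fit where 2.02% of all genes had an unadjusted p under 0.05.

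Dlx3 had the most reads of the family and was at 152, 255 and 209.9 RPM in controls 1 to 3. In mutants it was at 141, 182 and 137 RPM. Controls 2 and 3 were the 2 highest libraries, and control 1 lay between mutants 1 and 2. The Dlx3 change of -0.40 (95% interval -0.93 to 0.13, SE 0.22, limma unadjusted p 0.117) had the largest absolute size of the 6. Without control 1 it was -0.60 and had an unadjusted p of 0.0301 (adjusted p 1.00, limma with Benjamini-Hochberg), whereas without control 2 it was -0.23.

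Dlx4 was at 70.9, 123 and 79.7 RPM in controls and at 55.0, 92.2 and 68.7 RPM in mutants. Control 2 was highest and mutant 2 second, so the libraries numbered 2 stood above the rest in both groups. The change was -0.33 (95% interval -0.95 to 0.29, SE 0.26, limma unadjusted p 0.251), and it was -0.09 without control 2 and -0.15 without mutant 1.

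Dlx5, the lower-jaw gene that also acts in osteoblasts, was at 103, 82.4 and 99.2 RPM in controls and at 63.9, 79.6 and 98.6 RPM in mutants. Mutant 1 was lowest, while mutant 3 was close to control 3 from the same litter. The change was -0.24 (95% interval -0.68 to 0.20, SE 0.19, limma unadjusted p 0.235), and it was -0.09 without mutant 1.

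Dlx6 was the most even of the family, with a 1.25-fold range over the 6 libraries against 1.61-fold to 2.24-fold for the others. It was at 43.9, 36.9 and 37.0 RPM in controls and at 35.3, 43.2 and 43.8 RPM in mutants. High and low libraries were found in both groups. The change of 0.05 (95% interval -0.30 to 0.40, SE 0.15, limma unadjusted p 0.743) had the narrowest interval of the 6, and it was the one mean that was higher in mutants.

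**Figure D2:**
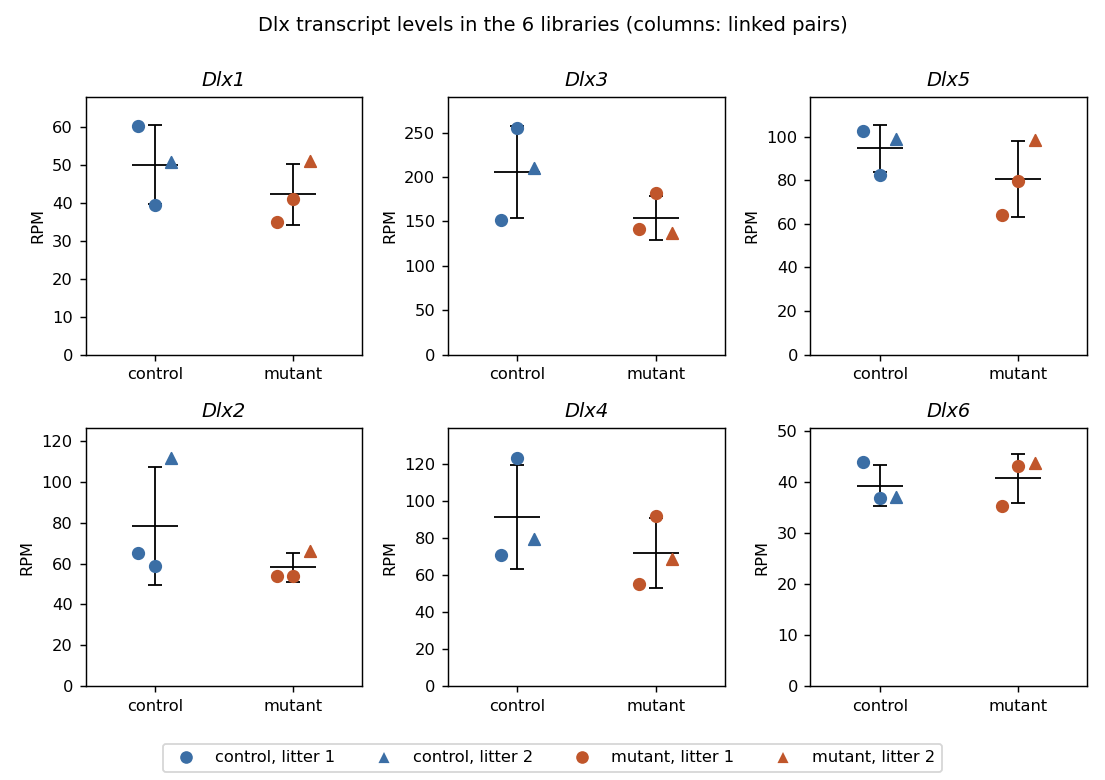
RPM of each Dlx gene by genotype, with linked genes in the same column. Each point is 1 library (circles litter 1, triangles litter 2), and the bars give the mean and SD of 3 libraries. The groups overlap in all 6 panels, and in the Dlx2 panel control 3, at 112 RPM, stands above the other libraries.

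The summed level of the 6 genes was 495 to 596 RPM in controls and 384 to 493 RPM in mutants. The lowest control and the highest mutant thus lay close together, and no test is given for a sum over chosen genes. The make-up of the sum also moved between libraries. On the length-scaled level, Dlx3 contributed from 24.9% (mutant 3) to 37.7% (control 2), Dlx5 from 22.3% (control 2) to 32.9% (mutant 3), and Dlx1 from 3.68% to 6.57%.

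Litters were compared next, since litter 2 has 1 library of each genotype. Within litter 1 the mean change was below 0 for all 6 genes, from -0.39 (Dlx4) to -0.04 (Dlx6). The share of all genes below 0 within litter 1 is not given here, and over all libraries it was 54.4%. Within litter 2 the change was -0.74 for Dlx2, -0.61 for Dlx3 and -0.21 for Dlx4, where it rests on a single pair of libraries. In the same pair Dlx5 changed by -0.01, Dlx1 by 0.0045 and Dlx6 by 0.24. Thus 4 of 6 genes had a change below 0 in both litters, where 18.1% of all genes tested did. The litter-by-genotype term in limma gave unadjusted p-values from 0.0734 (Dlx2) to 0.774 (Dlx4) and adjusted p-values of at least 0.91 for the Dlx genes. Litter 2 has 1 library of each genotype, so the spread in that fit comes from litter 1 alone, and the single pair is assumed to vary likewise. Over all genes 5.06% had an unadjusted p under 0.05 for that term.

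The linked genes carry noncoding transcripts on the opposite strand, and these were listed in the same table. Dlx1as overlaps Dlx1 by 335 exon bases, Dlx4os (listed as A730090H04Rik) overlaps Dlx4 by 79, and Dlx6os2 lies within Dlx6 with 104 shared bases. Dlx6os1 (listed as Dlx6as1), also called Evf2, is a long RNA known in the forebrain for acting with DLX proteins at the Dlx5 and Dlx6 enhancers. It spans Dlx6 at chr6:6820189-6871592 on the minus strand without sharing exon bases with it. Whether counting used strand is not given in the sources used here, so reads in shared bases cannot be assigned to one gene.

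Dlx6os1 was the most abundant of these by reads, at 142, 116.5 and 114 RPM in controls 1 to 3 and at 66.1, 119 and 119.6 RPM in mutants 1 to 3. Mutant 1 was lowest and the other 5 libraries lay close together. Its change was -0.33 (95% interval -0.92 to 0.25, SE 0.25, limma unadjusted p 0.223), and without mutant 1 it was -0.05. Dlx4os averaged 59.6 ± 23.0 RPM in controls against 51.5 ± 13.1 RPM in mutants (SD, n = 3), a change of -0.17 (limma unadjusted p 0.576) whose sign turned without control 2 (0.12) and with the enamel marker level, described below, as a covariate (0.04). Dlx1as was at 7.84 ± 1.17 and 5.94 ± 0.857 RPM, a change of -0.35 (limma unadjusted p 0.108). Both had overlapping groups, Dlx1as with control 2 just under mutant 3. The table has a row for Dlx6os2, with reads in mutants 2 and 3 alone (0.0665 and 0.168 RPM), and a row under its older name Dlx6as, at 3.70 ± 0.568 and 4.24 ± 0.658 RPM, a change of 0.16 (limma unadjusted p 0.45). The Dlx6os2 row had at most 4 reads in a library and was not tested.

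**Figure D3:**
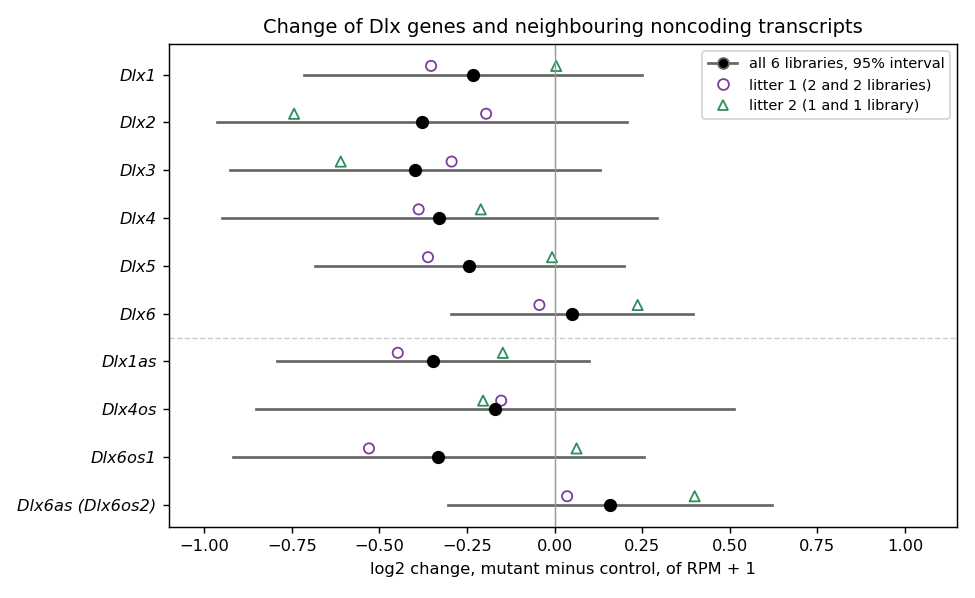
Log2 changes of RPM + 1, mutant minus control, for the 6 Dlx genes (above the dashed line) and 4 neighbouring noncoding rows. Black points and lines are the estimate and 95% interval from all 6 libraries, and open symbols are the changes within litter 1 and litter 2. Every interval includes 0, and the Dlx6 estimate is 0.05 against -0.40 to -0.23 for the other Dlx genes.

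Ratios between neighbouring transcripts remove library scaling, and 6 were compared with an exact two-sided permutation test, whose smallest p is 0.1 for 3 against 3. The ratios were chosen after the levels had been seen. The ratio of Dlx6os1 to Dlx6 was 3.24, 3.16 and 3.09 in controls 1 to 3 and 1.87, 2.76 and 2.73 in mutants 1 to 3. Controls lay within a narrow band and every mutant was below it, the one ratio of the 6 whose groups did not overlap. The difference in log2 ratio was -0.39 (exact permutation p 0.1, adjusted p 0.3 over 6 ratios), and it was -0.20 without mutant 1.

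Dlx6 over Dlx5 was 0.428, 0.447 and 0.374 in controls and 0.552, 0.542 and 0.444 in mutants. Mutant 3, of litter 2, fell just under control 2, of litter 1, so the groups overlapped. Within each litter the mutants lay above the controls, litter 2 having 1 library of each genotype, and no test within litters was run. The log2 difference was 0.30 (exact permutation p 0.2, adjusted p 0.3). Dlx4 over Dlx3 ran from 0.38 to 0.505 over the 6 libraries and differed by 0.07 between groups (exact permutation p 0.5), less than its spread. Dlx2 over Dlx1 ran from 1.08 to 2.20, both ends being controls (exact permutation p 0.8). Dlx4os over Dlx4 differed by 0.16 and Dlx1as over Dlx1 by -0.16 in log2 (exact permutation p 0.2 for each), with overlapping groups. Leaving out 1 library moved the first between 0.086 and 0.24 and the second between -0.21 and -0.10.

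**Figure D4:**
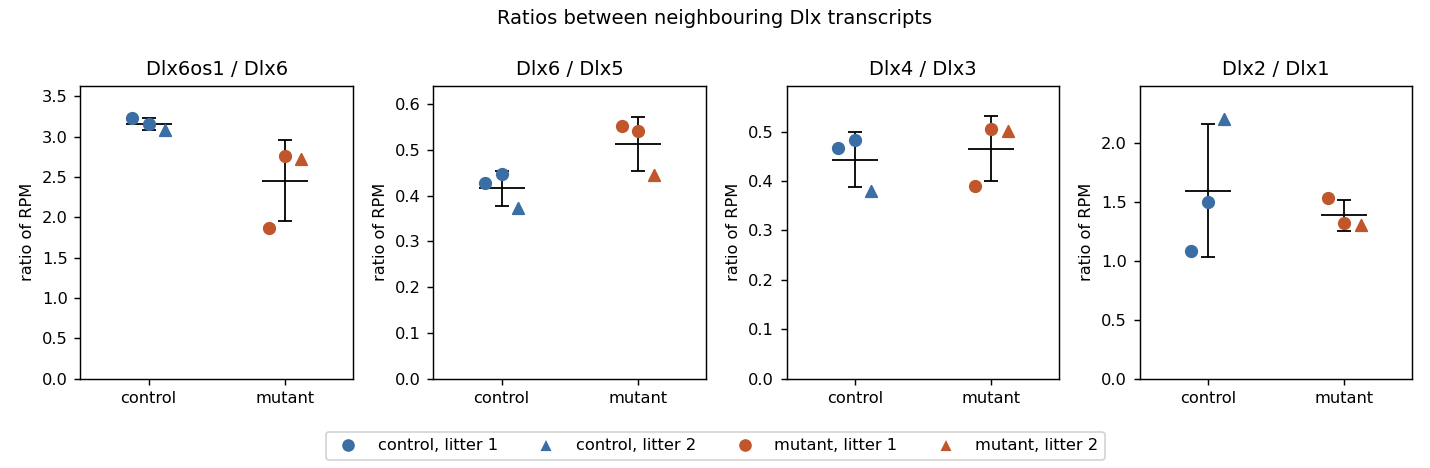
Ratios of RPM between neighbouring Dlx transcripts by genotype. Points are libraries (circles litter 1, triangles litter 2) and bars the mean and SD of 3. The Dlx6os1 to Dlx6 ratio is 3.09 to 3.24 in controls and 1.87 to 2.76 in mutants, and the other 3 panels overlap.

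The promoter of Dlx6os1 is shown because its ratio to Dlx6 was the one without overlap. That ratio was not shown to differ (exact permutation p 0.1, adjusted p 0.3 over 6 ratios). RefSeq on GRCm38.p6 gives 2 starts for Dlx6os1. The window chr6:6869484-6869783 on the minus strand runs from 250 bases before to 50 bases after one start, 5′ to 3′, with capitals marking TAATTA, a core that homeodomain proteins as a class, DLX included, can bind.
Dlx6os1: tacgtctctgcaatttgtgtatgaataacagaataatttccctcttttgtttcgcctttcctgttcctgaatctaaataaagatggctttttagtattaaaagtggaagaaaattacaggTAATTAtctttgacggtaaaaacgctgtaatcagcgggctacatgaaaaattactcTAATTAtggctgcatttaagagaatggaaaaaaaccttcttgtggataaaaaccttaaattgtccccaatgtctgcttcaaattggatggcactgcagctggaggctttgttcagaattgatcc
This window holds 2 copies of TAATTA, which reads the same on both strands, and the window at the other start (chr6:6861634-6861933) holds 1. Among 32851 promoter windows in that table, 5.29% hold at least 1 copy. The windows of Dlx1, Dlx2, Dlx4os and Dlx6os2 hold none. GGCGCC, also searched on both strands and its own reverse complement, was found once, in the Dlx2 window, and 11.9% of all windows hold it. Both motifs were looked for after the levels had been seen, and a match describes the sequence and no binding.

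The next question was whether linked genes vary together. Dlx3 and Dlx4 had a Pearson r of 0.89 over the 6 libraries on log2(RPM + 1) (exact permutation p 0.0167; Spearman rho 0.89, exact permutation p 0.0333). After adjustment over 21 relations the p was 0.292 for r. Without controls 2 and 3, the libraries farthest from the Dlx3 median, r was 0.86, and within litter 1 (4 libraries) it was 0.97. Dlx5 and Dlx6 had r 0.58 (exact permutation p 0.149; rho 0.71, p 0.136), which went to -0.03 without mutant 1 and control 1 and so rests on those libraries. Dlx1 and Dlx2 had r 0.53 (exact permutation p 0.3; rho 0.71, p 0.136), and r 0.72 without the 2 libraries farthest from the Dlx1 median.

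Across all 15 pairs of members, the highest r joined genes on different chromosomes. Dlx1 and Dlx5 had r 0.94 (exact permutation p 0.0167, adjusted p 0.125 over 15 pairs; rho 0.89, p 0.0333), and r 0.97 without control 1 and mutant 1. Control 3 and mutant 3 were nearly equal for each gene, and mutant 1 was lowest for both. The 15 pairs were computed after the levels had been seen. No pair passed adjustment. The lowest r was -0.40, for Dlx3 and Dlx6 (exact permutation p 0.424; rho -0.31, p 0.564), and it was 0.33 without controls 2 and 3.

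**Figure D5:**
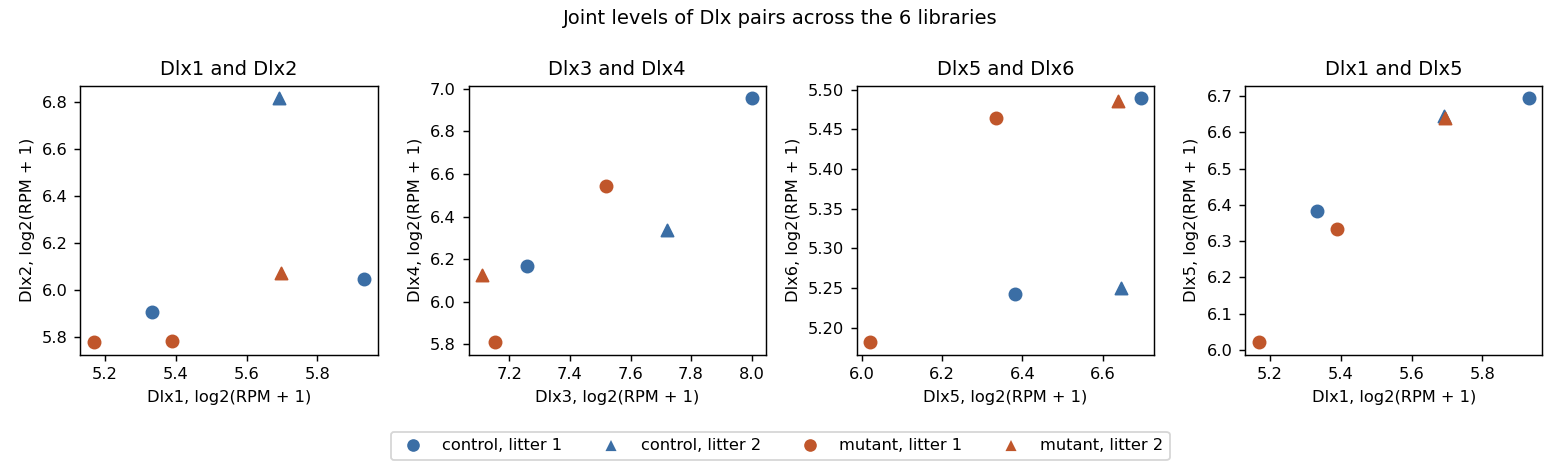
Levels on log2(RPM + 1) of the 3 linked pairs and of Dlx1 with Dlx5. Each point is 1 of the 6 libraries, coloured by genotype and shaped by litter. Dlx3 with Dlx4 (r 0.89) and Dlx1 with Dlx5 (r 0.94) line up most closely, while control 3 departs from the line in the Dlx1 with Dlx2 panel.

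Other cell types in the dissected tissue were checked by marker lists, since several Dlx genes are also expressed by epithelium and by mineralizing cells. The summed level of 14 enamel epithelium markers ran from 2415 to 40236 RPM in controls and from 5804 to 51009 RPM in mutants. Of the 14, 13 were higher in mutants on the mean log2 scale, with the largest changes in Cldn1 (2.02) and Epcam (1.56), and 0 had an unadjusted p under 0.05 by limma. Over all genes 54.4% were lower and 1.05% had an unadjusted p under 0.05. Control 2 had the lowest enamel level, and without it Cldn1 changed by 0.91, Epcam by 0.78 and the list's median went from 1.11 to 0.27. Within litter 2, 7 of the 14 markers were lower in the mutant. All 8 tested odontoblast markers of 9 listed were lower in mutants on that scale, led by Smpd3 (-1.07) and Dmp1 (-0.87), as were all 7 tested osteoblast markers of 8. The odontoblast count rests on mutant 3, whose mean log2 level of 6.05 stood below the 7.65 to 8.34 of the other libraries. Without mutant 3, 2 of the 8 odontoblast and 5 of the 7 osteoblast markers were lower, within litter 1 the counts were 3 and 5, and by mean RPM over all libraries they were 4 and 5, beside the 54.4% of all genes that were lower. Without control 3 the Dmp1 change was 0.13 and the Smpd3 change -0.59. Osteoblast markers summed to 1038 to 2138 RPM in controls and 537 to 2013 RPM in mutants, and odontoblast markers to 16893 to 28710 RPM and 5493 to 38474 RPM. None of these markers was without reads in all libraries. Skeletal muscle markers summed to at most 0.84 RPM, with no reads of Myog.

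Dlx4 was lower where the enamel markers were higher, with r -0.85 against their mean log2 level (exact permutation p 0.0278, adjusted p 0.292; rho -0.83, p 0.0583). Within litter 1 r was -0.94 (4 libraries). Without control 2 and mutant 1, the extremes of the enamel level, r was -0.37, so that relation rests on those libraries. Dlx3 had r 0.82 with the osteoblast marker level (exact permutation p 0.0556, adjusted p 0.321; rho 0.77, p 0.103), 0.80 within litter 1 and 0.32 without controls 3 and 2. Dlx1 had rho -0.94 with the odontoblast marker level (exact permutation p 0.0167, adjusted p 0.233) and r -0.54 (p 0.268), with r -0.95 within litter 1. None of the 18 relations of Dlx genes with marker levels passed adjustment. With the enamel level as a covariate the changes were -0.54 for Dlx2 (limma unadjusted p 0.0385), -0.30 for Dlx3 and -0.12 for Dlx4, in a fit where 2.87% of all genes had an unadjusted p under 0.05. Dlx3 and Dlx4 had unadjusted p-values of 0.0407 and 0.0367 with the replicate block, where 3.63% were. No adjusted p was under 0.05 in those limma fits. The part of these other cells in the Dlx values was otherwise not tested.

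By a rule of likeness, the 3 genes with the highest r to each member over the 6 libraries were taken from 4575 candidates averaging 5 RPM or more, with a log2 SD of 0.25 or more. With 6 points and that many genes, high values are bound to occur, and no p is given. Sp7, an osteoblast and odontoblast transcription factor, was closest to Dlx3 (r 0.99). It averaged 104 ± 24.4 RPM in controls against 75.6 ± 14.4 RPM in mutants (SD, n = 3; limma unadjusted p 0.0818). Six2, a homeobox gene, was closest to Dlx5 (r 0.99), and the basement membrane collagen Col4a1 to Dlx1 (r 0.99). Srpx was closest to Dlx2 (r 0.99), followed by Ifitm5, a bone-restricted membrane protein gene (r 0.99). Cadps2 was closest to Dlx4 (r 0.98) and Pask to Dlx6 (r 0.99). The remaining genes, with r from 0.97 to 0.98, included Psmc3ip for Dlx1, Chst3 for Dlx2, 1700054N08Rik and Ankrd6 for Dlx3, Ptpla and 2310047M10Rik for Dlx4, Aox3 and Gnb4 for Dlx5, and Traf4 and Wdhd1 for Dlx6.

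Genes that act with Dlx5 and Dlx6 in jaw patterning were examined as a list of 23, from the ligand Edn1 through its receptor Ednra to targets such as Gsc. Of the 18 tested, 14 were lower in mutants on the mean log2 scale, the scale of all such counts here, 3 had an unadjusted p under 0.05 and 0 an adjusted p under 0.05 (limma, Benjamini-Hochberg). Over all genes, 54.4% were lower and 1.05% had an unadjusted p under 0.05. The median change was -0.19, against -0.01 for all tested genes, and it was -0.06 without mutant 1 and -0.09 without control 2. Within litter 2, 8 of the 18 were lower. Edn1 averaged 1.60 ± 0.64 RPM in controls against 1.09 ± 0.455 RPM in mutants, with overlapping groups. Its change of -0.32 was -0.12 without control 1 or without mutant 1, -0.44 without mutant 3, and 0.14 in litter 2. Ednra changed by -0.59 within litter 1 and by 0.90 in the single pair of litter 2, with a mean of -0.09 over all libraries.

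Gsc, a homeobox gene activated downstream of endothelin and Dlx5 and Dlx6 in the jaw arch, had the list's largest decrease in mean. It averaged 8.40 ± 2.27 RPM in controls against 3.90 ± 0.133 RPM in mutants (SD, n = 3), with no overlap and a change of -0.91 (limma unadjusted p 0.00366). Mef2c, a mediator of endothelin signalling, changed by -0.45 (limma unadjusted p 0.0492) with overlapping groups, and its unadjusted p was 0.117 to 0.139 without control 2, control 3, mutant 1 or mutant 3. Pitx1 had a change of 0.73 with overlapping groups, which was 0.03 without control 2 and 0.36 without mutant 3, and Twist1 one of -0.38 without overlap (limma unadjusted p 0.0533). Hand2, the best known Dlx5 and Dlx6 target in the embryonic arch, had 0 to 6 reads in a library, and Hand1 had no reads.

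Of the other homeobox genes, 13 of 18 were tested, 8 lower and 5 higher in mutants, where 54.4% of all genes were lower. Lhx8 (-0.46, no overlap, limma unadjusted p 0.018) and Lhx6 (-0.54, limma unadjusted p 0.0431), LIM-homeodomain genes of jaw mesenchyme, had an unadjusted p under 0.05, and 0 had an adjusted p under 0.05. Over all genes, 1.05% had an unadjusted p under 0.05 and 2.64% had groups that did not overlap. The Lhx6 change was -0.34 without mutant 1, and its unadjusted p was under 0.05 in 2 of the 6 fits that left out 1 library. Without control 2, 5 of the 13 genes were lower, and within litter 2, 4 of the 13 were. The other tested genes had overlapping groups.

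The BMP pathway list of ligands, receptors, Smads and direct targets had 22 of 23 genes tested, 15 lower and 7 higher in mutants, a median change of -0.18 (-0.06 without control 2) and 0 with an unadjusted p under 0.05 by limma, beside 54.4% lower and 1.05% with such a p over all genes. Grem1, a secreted BMP antagonist, had the largest decrease in mean (-0.60), which was -0.35 without mutant 1. Bambi, a pseudoreceptor, had the next (-0.48), and it was -0.17 without control 3, whose level of 458 RPM stood above the 194 to 282 RPM of the other libraries. Among the targets Id1 averaged 115 ± 27.4 RPM in controls against 86.5 ± 24.3 RPM in mutants, a change of -0.40, and its groups overlapped, as did those of every Dlx gene. The Id1 change was -0.62 without control 1 and without mutant 2 (limma unadjusted p 0.0437 and 0.04), and -0.28 without mutant 3.

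Of 15 genes listed as binding DLX proteins or known as their targets, 13 were tested and 13 were lower in mutants on the mean log2 scale, with a median change of -0.36. By mean RPM 10 were lower, Bglap, Bglap2 and Gad1 being higher. Without mutant 3, 9 of the 13 were lower with a median of -0.14, and without control 2, 8 were, with a median of -0.18. Of the 13, 2 had an unadjusted p under 0.05 and 0 an adjusted p under 0.05 (limma, Benjamini-Hochberg), where 54.4% of all genes were lower and 1.05% had an unadjusted p under 0.05. The 2 were the bone matrix genes Spp1 (-3.05, limma unadjusted p 0.0312) and Ibsp (-1.41, limma unadjusted p 0.0195), which also belong to the osteoblast list. Spp1 overlapped between groups, with control 1 at 4.54 RPM inside the mutant range, which began at 3.36 RPM, so its change rests on controls 2 and 3, at 96.1 and 159 RPM. Its limma unadjusted p was 2.3e-06 without control 1, where the change was -4.55, and 0.0577 to 0.0914 without any 1 other library. The Ibsp groups did not overlap, and its change was -0.86 without control 3. The summed osteoblast marker levels are given above, and their part in these values was not tested. Maged1, which encodes a protein that binds DLX5, was at 600.5 ± 36.5 and 571.9 ± 36.9 RPM, a change of -0.07. The GABA synthesis gene Gad1, a forebrain target of Dlx1 and Dlx2, had a change of -0.14 although its mean RPM was higher in mutants (8.96 ± 6.93 against 7.84 ± 3.41), and it was 0.71 without mutant 3 and 0.09 without control 2, while Gad2 had at most 3 reads in a library.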

How the data were processed

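RNA-seq of 6 mouse molar libraries was deposited by the authors as 1 table titled normalized RPKM. TopHat2 and mm10 are named in the submitters' processing notes, and the counting program, annotation and strand setting are not given in the sources used here. The deposited values are log2. As powers of 2, 100% of those under 1000 reads were whole multiples (within 0.02) of 1 step per column shared by all genes. They were therefore taken as log2 RPM without length scaling, the denominator being inferred. Genes without reads sat at 0.9 of a step and were set to 0.

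Genes averaging 1 RPM or more entered limma 3.58.1 (R 4.3.3) on the log2(RPM + 1) scale (trend, no covariate, two-sided, Benjamini-Hochberg over 14444 genes), a scale that understates changes of low genes. The design had assumed RPKM. The script was tested on simulated data. Exon lengths are from GENCODE, sequences from GENCODE transcripts and RefSeq promoter windows. Correlations used exact permutation over 720 orders, whose smallest p is 0.00139.

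Named genes were the Dlx genes, their noncoding partners, Bmpr1a, Gli1, listed genes with an unadjusted p under 0.05 or among a list's 2 largest changes, and the 3 closest by likeness. Some genes that this rule names are not reported here. The members and lists were chosen with earlier results of these data known. Hoxa2, Hand1, Hand2, Edn1, Ednra, Barx1, Msx1, Msx2, Pax9, Twist1, Id1, Maged1, Gad1 and Gad2 were named for their roles after their values were seen. Other lists gave 0 genes with an adjusted p under 0.05: macrophage and osteoclast (3 of 7 lower), endothelium (4 of 5), erythroid (2 of 4), neuron and glia (3 of 5; 2 had a limma unadjusted p under 0.05, among them S100b at 0.0306), beside 54.4% lower and 1.05% with such a p over all genes. Gli1, the gene that drives CreER, averaged 43.0 ± 18.0 RPM in controls against 25.0 ± 4.69 RPM in mutants, without overlap (limma unadjusted p 0.046). Its log2 change of -0.70 was -0.38 without control 3, the highest library at 63.7 RPM. Mutants alone carried CreER, so its presence and the deletion of Bmpr1a cannot be told apart between these groups.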

Additional observations from a re-analysis of the deposited data

How the results depend on the processing

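Each Dlx change was recomputed under 18 alternatives: pseudocounts of 0.1 and 0.5 or none, no filter on low values, a filter at a mean of 5 RPM, median-of-ratios and upper-quartile scaling, limma voom, litter or replicate block, enamel level as a covariate, litter 1 alone, and each library left out. No Dlx gene had an adjusted p under 0.05 in any of them (limma, Benjamini-Hochberg). Dlx1, Dlx2, Dlx3, Dlx4 and Dlx5 kept a negative change in 18 of 18. The filters and blocks leave the estimate unchanged by construction and could not turn its sign. Litter 2 alone was not among the alternatives, and the Dlx1 change there was 0.0045. The share of all genes that kept their sign is not given. Dlx6 was negative in 2 of 18, at -0.044 in litter 1 alone.

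Leaving out each library gave -0.39 to -0.09 for Dlx1, -0.55 to -0.10 for Dlx2, -0.60 to -0.23 for Dlx3, -0.52 to -0.09 for Dlx4, -0.40 to -0.09 for Dlx5 and -0.0046 to 0.15 for Dlx6, which was at -0.0046 without mutant 3. An unadjusted p under 0.05 was reached by Dlx2 with litter as a block (0.04) and with the enamel covariate (0.0385), by Dlx3 with the replicate block (0.0407) and without control 1 (0.0301), and by Dlx4 with the replicate block (0.0367).

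The number of genes with an unadjusted p under 0.05, 152 in the reported fit, was 344 with no filter, 292 with litter as a block, 524 with the replicate block, 414 with the enamel covariate and 319 in litter 1 alone, and ran from 68 (without mutant 1) to 319 (without control 1) over the fits that left out 1 library. The number with an adjusted p under 0.05 ran from 0 to 1 over those fits, the 1 being without control 1. The replicate numbers come from the column names. Deviations of same-numbered libraries from their group means correlated across genes at -0.03, 0.75 and 0.50 for numbers 1 to 3. For unlike numbers r ran from -0.67 to 0.09, so numbers 2 and 3 were alike across groups and number 1 was not. By the labels control 3 and mutant 3 are the litter 2 pair, but no label pairs libraries within litter 1. The replicate block was therefore kept as an alternative. The cause of these shifts was not tested.

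Without the 2 libraries farthest from the median, the r of Dlx5 with Dlx6 went from 0.58 to -0.032. With the enamel level it went from -0.02 to 0.21 for Dlx1, from -0.58 to 0.21 for Dlx3 and from -0.15 to 0.55 for Dlx5. With the osteoblast level it went from 0.51 to -0.87 for Dlx2 and from 0.46 to -0.21 for Dlx4. Left-out libraries moved the log2 ratio difference of Dlx2 over Dlx1 between -0.39 and 0.12, that of Dlx4 over Dlx3 between -0.039 and 0.19, and that of Dlx6os1 over Dlx6 between -0.48 and -0.20. The Dlx4os change ran from -0.38 (without control 1) to 0.12 (without control 2) and was 0.037 with the enamel covariate. Alternatives for the noncoding transcripts, all ratio comparisons, and the recounts of listed genes without a library or within a litter, were added after the data had been seen. Depth limits no Dlx gene but limits Dlx6os2, where 3 reads are worth up to 0.126 RPM.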
